A study of Mus musculus with 2 samples.

Results

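In BMDMs kept for 1 hr with the culture supernatant of apoptotic W3 cells, 59 genes that were bright with medium read at or below 0.6 of their medium signal. They were chosen by the measured signals themselves. Where several probe sets belonged to one gene alone, the one brightest on average over both arrays stood for it, and the gene was kept where the medium signal was 150 or more and the ratio of supernatant to medium signal was 0.6 or less. Of 18194 genes on the array, 8843 had a medium signal of 150 or more, and 69 of these (0.78%) also met the ratio. Then 10 of the 69 were left out by name (Plk2, Tnf, Jun, Atf3, Slc30a3, Gadd45a, Mx1, Smad6, Tmem140 and Trim5, the last as a Trim gene), which leaves the 59. Since the ratio chose the genes, their low ratios are a description and not a finding.

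BMDMs are macrophages grown from bone marrow, here from C57BL/6J females of 8 weeks, cultured for more than 7 days with M-CSF. The treated cells received the supernatant of W3 cells, a mouse T cell line expressing Fas, which had been treated with Fas ligand for 30 min and had stood for 60 min in RPMI with 1% FCS. The control cells received RPMI with 10% FCS. There was 1 array per condition and none with supernatant of living W3 cells, so an effect of apoptosis, of W3-conditioned medium and of the serum content cannot be told apart. RNA was read on an Affymetrix mouse array as MAS5 signals, a linear intensity per probe set. With 1 array per condition no value has an error or a p-value, and this number of arrays sets the precision. On both arrays macrophage markers were bright, with all 10 on the array at 1050 or more with the supernatant and 471 or more with medium. Of 7 T cell markers, read because the supernatant came from T cells, 5 were under 38.4 on both arrays, the level taken as the floor for dim signals, and Cd3d, Cd3e and Thy1 read 1.51, 9.92 and 4.96 with the supernatant and 2.13, 14.3 and 32.5 with medium. The summed T cell marker signal was 329 with the supernatant and 524 with medium, and most of it came from Cd28 (283 with the supernatant and 393 with medium).

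Within an hour, an mRNA can only become much scarcer if it is short-lived and its transcription stops, or if its decay is sped up. mRNAs with fast turnover typically encode regulators such as transcription factors, ubiquitin ligase adaptors, signalling scaffolds and innate immune proteins, whereas mRNAs of structural and metabolic proteins usually last for many hours. The rate of decay was not measured in these cells. No array was made of cells before the incubation. A fall with the supernatant and a rise with medium therefore cannot be told apart, and lower here means lower than with medium. In bulk RNA, less RNA per cell and fewer cells that hold it cannot be told apart.

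The ratios of the 59 genes ran between 0.397 and 0.599 with a median of 0.542, which is 1.84-fold lower, and 22 genes were at least 2.0-fold lower. Over all 8843 bright genes the median ratio was 0.988, and the range between the 5th and the 95th percentile was 0.759 to 1.27. The genes were at the dim end of the bright genes. Their median signal was 137 with the supernatant and 256 with medium, against medians of 952 with the supernatant and 953 with medium over all bright genes. With medium 23 of the 59 read under 200 and 6 read 1000 or more. With the supernatant 36 of the 59 read under 150, none was under the floor, and 1 (Ksr1) was under 62.4, the highest signal among the odorant and pheromone receptor probe sets from which the floor was set.

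**Figure D1:**
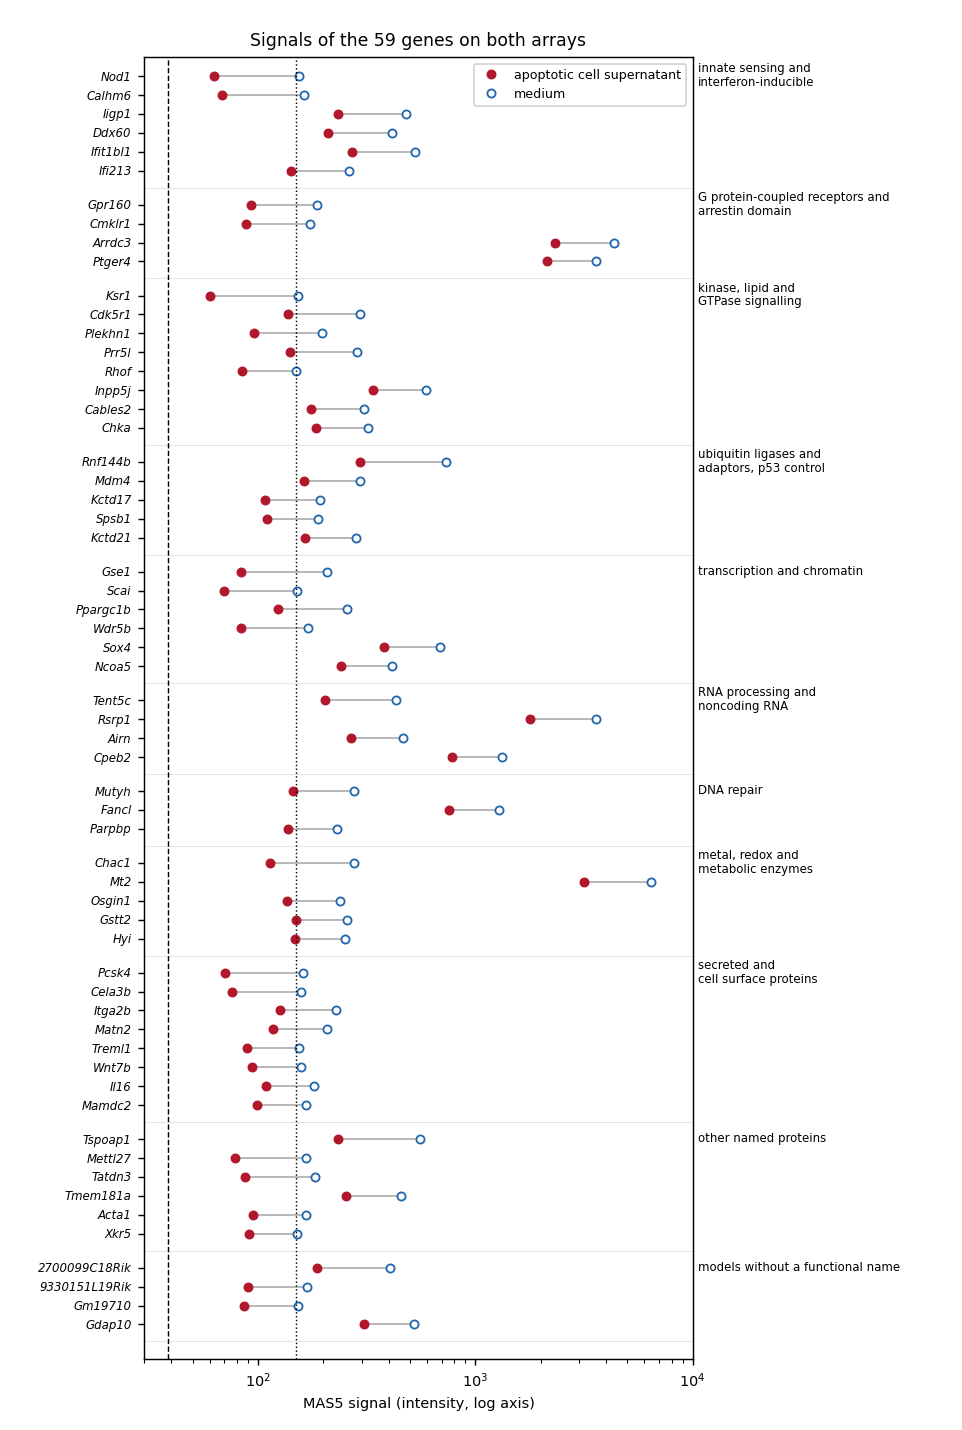
MAS5 signal (intensity, log axis) of the 59 genes with apoptotic cell supernatant (filled circles) and with medium (open circles), 1 array each, by functional group, with the floor of 38.4 (dashed) and the minimum of 150 (dotted). Mt2, Arrdc3, Ptger4 and Rsrp1 stand to the right, at 1788 or more with the supernatant and 3608 or more with medium, while most genes lie near the minimum.

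Ratios at or below 0.6 were more frequent among dim genes. Between 150 and 300 of medium signal, 39 of 1362 genes (2.86%) met the ratio, between 300 and 600 17 of 1754 (0.969%), between 600 and 1200 4 of 1965 (0.204%), and above that 9 of 3762 (0.239%). The same bins held 38, 13, 2 and 6 of the 59 genes. The SD of the log2 ratio over all genes of a bin was 0.46, 0.31, 0.24 and 0.17. Ratios of the same size upward, at or above 1.67, were met by 31, 28, 23 and 19 genes of these bins. The dimmest bin was the one in which downward ratios outnumbered upward ones, and in the others upward ratios were more frequent. Genes were picked and binned by the medium signal, the denominator of the ratio, with no limit on the supernatant signal. That choice alone can favour low ratios near the minimum, so nothing is read from this asymmetry.

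**Figure D2:**
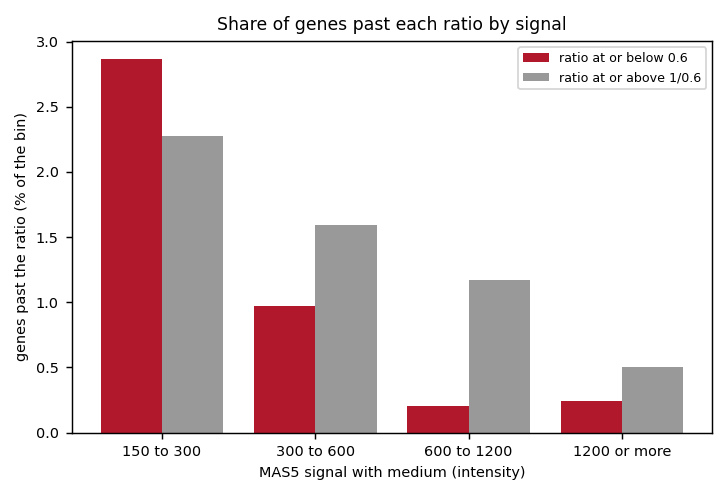
Share of genes (%) with a ratio of supernatant to medium at or below 0.6 (red) and at or above 1/0.6 (grey) in 4 bins of medium signal, 1 array per condition. Downward ratios fall off with signal, at 2.86% of the dimmest bin and 0.239% of the brightest.

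**Figure D3:**
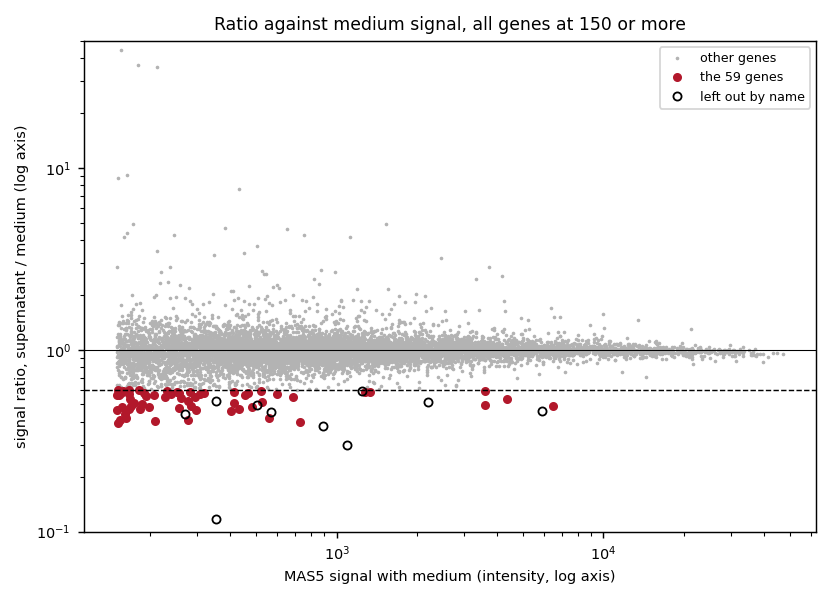
Ratio of supernatant to medium signal (log axis) against medium signal (log axis) for the 8843 genes at 150 or more, with the 59 genes in red, the 10 genes left out by name as open circles and the limit of 0.6 dashed. The cloud of all genes narrows to the right, and 6 of the 59 genes lie at a medium signal of 1000 or more.

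The genes just inside the ratio were Il16 (0.598), Xkr5 (0.599) and Mamdc2 (0.599), and those just outside were B3gnt8 (0.602), Marchf1 (0.603) and Dnajc16 (0.603). At the signal minimum Rhof (150), Scai (151) and Xkr5 (152) were just inside with medium, and B3gntl1 (149), Nuak1 (148) and Kdm4b (148) just outside. Values ran on without a gap across both limits.

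The 6 genes brightest with medium give the strongest signals of the set. Mt2 encodes a metallothionein, a small protein that binds zinc and copper and is made in response to metals and glucocorticoids. It read 3158 with the supernatant and 6450 with medium, 2.04-fold lower. Its neighbour in the family, Mt1, read 8910 with the supernatant and 11772 with medium, a ratio of 0.757, so the pair was lower together but to unequal extents. Arrdc3, an arrestin-domain protein that helps to take beta-adrenergic receptors off the surface for degradation, read 2320 with the supernatant and 4349 with medium, 1.87-fold lower. Its relatives were divided, with ratios of 0.660 for Arrdc2 (110 with the supernatant and 167 with medium), 0.923 for Arrdc1, 1.15 for Arrdc4 and 1.24 for Txnip. Ptger4, a receptor for prostaglandin E that raises cAMP, read 2131 with the supernatant and 3608 with medium, 1.69-fold lower, whereas Ptger2, which signals through the same second messenger, had a ratio of 1.62 (826 with the supernatant and 511 with medium). The other prostaglandin E receptors were dim, with 26.8 for Ptger3 with the supernatant and 52.4 with medium, and Ptger1 under the floor on both arrays. Rsrp1, an arginine- and serine-rich protein, read 1788 with the supernatant and 3610 with medium. Cpeb2, which binds a regulatory element in mRNA tails and controls their translation, read 779 with the supernatant and 1331 with medium, and its family members Cpeb1, Cpeb3 and Cpeb4 had ratios of 0.824, 1.30 and 1.17, with Cpeb1 dim (52.3 with the supernatant and 63.4 with medium). Fancl, the ubiquitin ligase subunit of the Fanconi anaemia core complex, read 754 with the supernatant and 1283 with medium. For Mt2, Arrdc3 and Ptger4 as for the others, only 1 array stands behind each signal.

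Innate sensing and interferon-inducible genes formed a group of 6 among the 59, a grouping made after the values were seen. Type I and type II interferons switch on many such genes in macrophages through STAT and IRF factors, and resting macrophages keep many of them at a low tonic level. Nod1, a cytosolic sensor of bacterial peptidoglycan, read 63.1 with the supernatant and 154 with medium. Calhm6, a channel-family protein inducible by interferon in macrophages, read 68.6 with the supernatant and 163 with medium. With the supernatant both were less than 2-fold above the floor. Iigp1, an immunity-related GTPase that attacks the vacuoles of intracellular parasites, read 233 with the supernatant and 480 with medium. Ddx60, a helicase of antiviral defence, read 210 with the supernatant and 413 with medium. Ifit1bl1, a member of the Ifit family of RNA-binding antiviral proteins, read 270 with the supernatant and 527 with medium, and Ifi213, of the family of interferon-inducible DNA sensors, 142 with the supernatant and 261 with medium. The 6 ratios ran between 0.409 and 0.542. All 6 genes met both limits under each of 3 other scalings, which reuse the same arrays and left every one of the 59 at 0.637 or less. Nod1, Calhm6 and Ifit1bl1 had no other probe set. The other probe set had a ratio of 0.368 for Iigp1, 0.735 for Ifi213 and 0.935 for Ddx60, the last near the floor. With log2 signals averaged over every probe set, the ratios were 0.422 for Iigp1, 0.631 for Ifi213 and 0.690 for Ddx60.

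The type I interferon list held none of these 6 genes. Of its 37 members at 150 or more with medium, 28 had a ratio below 1, beside 4841 of all 8843 bright genes. The median ratio of the list was 0.850, beside 0.988 over all bright genes. The 1 member that met the limit, beside 0.78% of all bright genes, was Mx1 (0.455), which is among the genes left out by name. Gbp3 (0.610), Ifit1 (0.614), Ifit3 (0.631) and Ifit2 (0.634) were just outside it. These Ifit genes are brighter relatives of Ifit1bl1, and Ifit1 read 1254 with the supernatant and 2043 with medium. Not all interferon genes were lower, since Cxcl10 had a ratio of 1.19, Bst2 1.10 and Zbp1 1.07.

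The interferon-stimulated response element, bound by STAT and IRF factors, was searched as GAAANNGAAA on both strands in RefSeq promoter windows (GRCm38.p6, 250 bases before to 50 after each start). Such windows were at hand for 44 of the 59 genes, and a gene with several windows counted when any held a match. It was present for 5 of the 44 (11.4%), namely Calhm6, Ddx60, Ifi213, Ifit1bl1 and Itga2b, and for 3.99% of 27025 genes with a window and 3.94% of the 7291 bright ones. This motif was chosen after the values were seen, and a match is not a shown binding site. Over the bright genes with the element, those left out by name included, 8 of 287 (2.79%) had a ratio at or below 0.6, and their median ratio was 0.970. Over those without it the numbers were 45 of 7004 (0.642%) and 0.989. The 8 genes include the 5 named above, which the ratio chose. The 2 shares are therefore no separate comparison, and nothing is read from their difference. The windows of the 4 interferon genes among the matches are shown to give the letters and the place of the element. All were chosen for a low ratio, so their being lower says nothing about it. Matches are in capitals, and the start site lies between bases 250 and 251.
Ifit1bl1, chr19:34599378-34599677, strand -: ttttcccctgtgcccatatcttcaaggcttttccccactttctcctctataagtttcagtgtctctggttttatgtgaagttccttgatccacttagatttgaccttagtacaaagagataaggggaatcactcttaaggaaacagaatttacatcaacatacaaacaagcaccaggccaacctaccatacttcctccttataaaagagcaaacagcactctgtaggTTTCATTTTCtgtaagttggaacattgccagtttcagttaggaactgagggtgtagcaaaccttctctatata
Ifi213, chr1:173599223-173599522, strand -: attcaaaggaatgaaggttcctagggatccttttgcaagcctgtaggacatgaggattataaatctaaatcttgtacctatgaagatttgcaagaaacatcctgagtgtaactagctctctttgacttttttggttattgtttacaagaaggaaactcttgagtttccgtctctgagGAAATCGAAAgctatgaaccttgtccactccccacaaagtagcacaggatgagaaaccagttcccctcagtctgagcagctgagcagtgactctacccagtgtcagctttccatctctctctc
Ddx60, chr8:61927837-61928136, strand +: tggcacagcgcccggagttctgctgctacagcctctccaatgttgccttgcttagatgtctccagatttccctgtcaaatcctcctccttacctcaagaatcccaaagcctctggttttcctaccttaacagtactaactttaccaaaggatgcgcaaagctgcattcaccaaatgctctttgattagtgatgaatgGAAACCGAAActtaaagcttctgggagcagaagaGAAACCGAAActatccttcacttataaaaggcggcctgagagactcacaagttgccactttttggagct
Calhm6, chr10:34127923-34128222, strand -: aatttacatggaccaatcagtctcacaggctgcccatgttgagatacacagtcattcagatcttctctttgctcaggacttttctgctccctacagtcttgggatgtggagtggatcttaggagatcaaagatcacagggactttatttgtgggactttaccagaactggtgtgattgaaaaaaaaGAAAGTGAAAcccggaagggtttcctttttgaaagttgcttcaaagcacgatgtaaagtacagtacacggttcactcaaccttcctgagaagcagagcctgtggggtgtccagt
The match began 23 bases before the start in the Ifit1bl1 window, 1 of 2 for that gene, and 73 and 64 bases before it in Ifi213 and Calhm6. Ddx60 held 2 matches, which began 53 and 19 bases before the start, and both have the same letters.

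Of 6 common promoter motifs, the cAMP response element TGACGTCA was present in front of Wdr5b alone, 1 of 44 genes (2.27%), beside 3.90% of bright genes. Its core TGACG, which the full element contains, was found for 13 (29.5%), beside 38.4%, the GC box GGGCGG for 22 (50%), beside 71.0%, and the E-box CACGTG for 3 (6.82%), beside 12.6%. The TATA box TATAAA was found for 8 (18.2%), beside 8.26%, among them Acta1, Ddx60, Ifi213 and Ifit1bl1. The Ets site CCGGAAGT was in none of the 44 windows and in 10.7% of those of bright genes. Over all 27025 genes, bright or not, the shares were 2.03% for the cAMP response element, 23.0% for its core, 38.2% for the GC box, 8.09% for the E-box, 15.7% for the TATA box and 4.31% for the Ets site. For Mt2 the letters TGCNCNC were searched. They are a looser pattern than the core of the metal response element, the site through which zinc acts on metallothionein genes. A match is therefore not always such a core. Matches occurred in 32 of 44 windows (72.7%) and for 63.9% of bright and 53.6% of all genes, so most windows hold one. Mt2 held 6 matches, and 71 of the 27025 genes (0.263%), Mt2 among them, held 6 or more. Its window is shown for these repeats.
Mt2, chr8:94172368-94172667, strand +: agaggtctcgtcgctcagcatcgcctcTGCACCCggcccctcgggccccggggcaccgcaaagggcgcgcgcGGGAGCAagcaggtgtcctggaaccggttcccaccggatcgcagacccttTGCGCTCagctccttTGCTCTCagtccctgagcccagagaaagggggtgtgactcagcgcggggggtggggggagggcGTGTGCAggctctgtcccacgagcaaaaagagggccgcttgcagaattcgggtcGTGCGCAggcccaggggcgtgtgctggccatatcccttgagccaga
The first of the 6 began 223 bases before the start, and the last lay just after it.

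**Figure D4:**
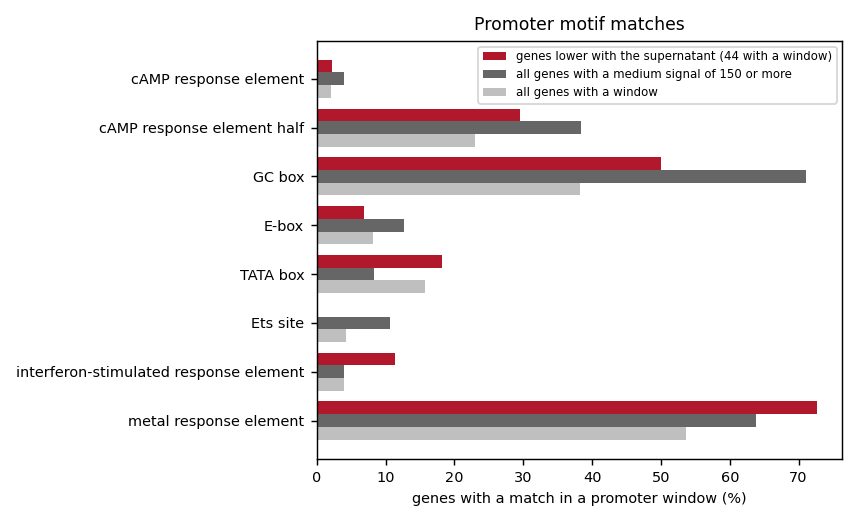
Share of genes (%) with at least 1 match of each motif in a promoter window, for the 44 genes with a window (red), for all bright genes (dark grey) and for all genes (light grey). The interferon-stimulated response element stands at 11.4% of the 44 genes and 3.94% of bright genes, and the GC box at 50% and 71.0%.

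Receptors of the G protein-coupled class were represented by Ptger4 and by 2 dimmer genes. Gpr160, an orphan receptor, read 93.0 with the supernatant and 186 with medium. Cmklr1, the receptor through which chemerin attracts macrophages, read 88.2 with the supernatant and 174 with medium. Among 40 bright genes of the class, picked by symbol, these 3 met the limit, beside 0.78% of all bright genes, and 4 had a ratio at or above 1.67, with a median ratio of 1.03.

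Signalling scaffolds and enzymes made up 8 of the 59 genes. Ksr1, which holds Raf, MEK and ERK together, had the lowest ratio of the set (60.3 with the supernatant and 152 with medium, 2.52-fold lower), with both signals near the lower limits. Cdk5r1, the activating partner of the kinase Cdk5, read 137 with the supernatant and 296 with medium, and Cdk5 itself had a ratio of 0.962. Prr5l, a protein bound to the mTOR complex that holds Rictor, read 141 with the supernatant and 286 with medium, while Rictor had a ratio of 1.19. Inpp5j, a phosphatase of phosphoinositides, was the brightest of the group, with 340.1 with the supernatant and 596 with medium. Chka, choline kinase and the first enzyme of phosphatidylcholine synthesis, read 184 with the supernatant and 320 with medium. Cables2, a relative of an adaptor between cyclin-dependent kinases and Abl kinases, read 176 with the supernatant and 308 with medium. The remaining genes, Rhof, a small GTPase of filopodia, and Plekhn1, with a pleckstrin homology domain, read under 100 with the supernatant and under 200 with medium.

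Ubiquitin ligases, their adaptors and p53 control gave 5 genes. Rnf144b, a ligase of the RBR type, was 2.49-fold lower (294 with the supernatant and 732 with medium), and among genes above 300 with medium it had the lowest ratio of the 59. Mdm4, which restrains p53, read 162 with the supernatant and 294 with medium, and its partner Mdm2 2117 with the supernatant and 2649 with medium. Spsb1, Kctd17 and Kctd21, substrate or assembly partners of cullin ligases, had ratios of 0.579, 0.555 and 0.585. Of 230 bright genes of the ubiquitin class by symbol 4 met the limit, beside 0.78% of all bright genes, 1 was at or above 1.67 and the median ratio was 1.00. These 4 are among the genes that the ratio chose, and nothing is read from their count, nor from the other list and class counts. The p53 target list had a median ratio of 1.03 over 21 bright genes, and Plk2 and Gadd45a, both left out by name, were its 2 members at or below 0.6.

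Transcription and chromatin proteins gave 6 genes, which read at most 380 with the supernatant and 689 with medium. Sox4, a factor of the Sox family, read 380 with the supernatant and 689 with medium. Ncoa5, a coregulator of nuclear receptors, read 240 with the supernatant and 412 with medium. Ppargc1b, a coactivator that drives mitochondrial genes, read 124 with the supernatant and 257 with medium, while Ppargc1a was under the floor on both arrays. Gse1, found in histone demethylase complexes, was 2.48-fold lower (83.9 with the supernatant and 208 with medium). Scai, a repressor of MRTF and SRF transcription, and Wdr5b, a relative of the histone methylation subunit Wdr5, read 69.9 and 83.5 with the supernatant, against 151 and 170 with medium. Of 161 bright genes of transcription factor families other than Zfp, 3 met the limit, beside 0.78% of all bright genes. They were Ppargc1b, Sox4 and Atf3, the last left out by name.

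RNA proteins and noncoding RNAs included, besides Rsrp1 and Cpeb2, the genes Tent5c and Airn. Tent5c, a poly(A) polymerase that lengthens mRNA tails, read 203 with the supernatant and 430 with medium. Airn, the noncoding RNA that silences Igf2r on the paternal chromosome, read 267 with the supernatant and 464 with medium. Other noncoding or unnamed models in the set were 9330151L19Rik, Gm19710 and Gdap10, annotated as long noncoding RNAs, and 2700099C18Rik, annotated as a transcribed pseudogene (186 with the supernatant and 403 with medium). Gdap10 read 307 with the supernatant and 522 with medium.

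DNA repair genes numbered 3. Besides Fancl they were Mutyh, the glycosylase that removes adenine opposite oxidized guanine (145 with the supernatant and 278 with medium), and Parpbp, an inhibitor of homologous recombination (137 with the supernatant and 232 with medium). Mutyh was the 1 member at or below 0.6 among 39 bright genes of a DNA repair list, beside 0.78% of all bright genes. The median ratio of that list was 0.942. Fanca and Fancc, also of the Fanconi pathway, had ratios of 0.949 and 1.12.

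Metal, redox and metabolic enzymes held, besides Mt2, the genes Chac1, Osgin1, Gstt2 and Hyi. Chac1, which breaks down glutathione and belongs to the ATF4 stress response, was 2.44-fold lower (114 with the supernatant and 278 with medium). Osgin1, named for its induction by oxidative stress, read 136 with the supernatant and 239 with medium. Gstt2, a glutathione transferase, and Hyi, hydroxypyruvate isomerase, which RefSeq lists as a transcribed pseudogene, read 149 each with the supernatant and 256 and 253 with medium. In a list of FoxO and starvation response genes Chac1 and Arrdc3 were the 2 of 25 bright members at or below 0.6, and the median ratio was 0.978. In a glucocorticoid list Mt2 was the 1 of 15, with a median of 0.973. Over all bright genes the share was 0.78%. The ratio chose these genes, so nothing is read from either count.

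Secreted and cell surface proteins gave 8 genes, all at 126 or less with the supernatant and 228 or less with medium. They include Il16, a chemoattractant for CD4 cells, Wnt7b, a Wnt ligand that macrophages can release, the extracellular matrix protein Matn2, and Mamdc2. Itga2b, the alpha chain of the platelet fibrinogen receptor, read 126 with the supernatant and 228 with medium, and Treml1, a receptor of platelet granules, 89.1 with the supernatant and 155 with medium. Since both are known from platelets and their precursors, 9 further platelet genes were read after the values were seen. Of these 3 (Gp6, Gp9 and Nfe2) stayed below the floor with either treatment. Ppbp read 157 with the supernatant and 142 with medium, Gp1bb 60.6 with the supernatant and 41.8 with medium and Gp5 56.4 with the supernatant and 12.8 with medium. Itgb3, the partner chain of Itga2b, read 44.1 with the supernatant and 63.4 with medium. Pf4, the brightest (13381 with the supernatant and 12492 with medium), made up most of the summed signal, which was 13786 with the supernatant and 12849 with medium. Pcsk4, a convertase known from germ cells, and Cela3b, a pancreatic elastase, read 70.9 and 75.8 with the supernatant, against 160 and 157 with medium. The 6 other named proteins were led by Tspoap1, a partner of the mitochondrial protein TSPO (233 with the supernatant and 556 with medium, 2.38-fold lower), and by Tmem181a (255 with the supernatant and 454 with medium), and Mettl27, Tatdn3, Acta1 (skeletal muscle actin) and Xkr5 read under 100 with the supernatant and under 200 with medium.

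In other lists no bright gene met the limit, and at the share of 0.78% over all bright genes lists of this size would mostly hold none, so nothing is read from these counts. These were cell cycle genes (46 bright genes, median ratio 0.978), serum response factor targets (17, 0.987), cholesterol synthesis (16, 1.03), Toll-like receptor signalling (23, 1.03), engulfment (25, 0.983), the Notch pathway (12, 0.893), the Wnt pathway (13, 0.938), lysosomal genes (23, 0.959) and housekeeping genes (11, 0.963). Of 19 bright BMP and TGF-beta genes 1 met it (Smad6, left out by name), with a median of 0.964, of 22 interleukin and TNF superfamily genes 1 (Il16, median 0.935), and of 170 small GTPases and their regulators 1 (Rhof, median 0.971).

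The ratios of other probe sets of the same genes were not used in the choice. Their signals were, since the brightest probe set stood for the gene. The other probe sets come from the same RNA and the same arrays and are no replicates, so their ratios are given as a description. Of the 59 genes, 31 had 1 probe set, 5 had others under the floor on both arrays, and 23 had at least 1 other above the floor on at least 1 array. For these ratios any signal below the floor was raised to it. Of the 39 other probe sets of these 23 genes, 8 (20.5%) were at or below 0.6, beside 3.46% of 9490 other probe sets over all bright genes, and 31 (79.5%) were below 1, beside 56.9%. Their median ratio was 0.820, beside 0.973, and lay nearer to 1 than the median of 0.542 of the probe sets that chose the genes. The choice of the brightest probe set makes the others dimmer. Their median medium signal was 103, against 294 for the choosing probe sets of the same genes. The 9490 were not matched to the 39 in signal. Low ratios were more frequent among dim genes, so these shares do not compare like with like.

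All other probe sets of a gene above the floor were below 1 for 16 of the 23 genes, and at or below 0.6 for 4. These 4 were Ptger4 (114 with the supernatant and 241 with medium on the second probe set, ratio 0.472), Tent5c (88.7 with the supernatant and 211 with medium, 0.421), Iigp1 (79.7 with the supernatant and 217 with medium, 0.368) and Ksr1, at most 0.484 since the second probe set was under the floor with the supernatant (11.6) and read 79.3 with medium. Cpeb2 had 257 with the supernatant and 605 with medium on its second probe set (0.425) and 125 with the supernatant and 167 with medium on a further one (0.745). For Cdk5r1 a second probe set read 78.2 with the supernatant and 142 with medium (0.552), and for Chka 53.1 with the supernatant and 90.1 with medium (0.590), beside a further one at 0.929. Another of Cdk5r1 was under the floor with the supernatant. The probe sets of Airn were all lower, with 4 others between 0.730 and 0.861. In each of these genes all probe sets above the floor on at least 1 array were below 1.

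For 7 genes at least 1 other probe set above the floor had a ratio of 1 or more. Matn2 had 149 with the supernatant and 102 with medium on its second probe set (1.46), and Rhof 119 with the supernatant and 103 with medium (1.15), so that in both genes the only other probe set went the opposite way. Scai read 114 with the supernatant and 96.2 with medium on its second probe set (1.18), and its further 2 were at 0.997 and 1.08. Mdm4 had 0.820 and 1.26, Rsrp1 0.791 and 1.03, and Il16 0.761 and a ratio of at least 1.42 with medium under the floor. Sox4 was the most divided, with 0.666 and 0.376 on 2 dimmer probe sets, 0.996 on another, under the floor with the supernatant, and at least 1.28 on one more, which read 49.0 with the supernatant and 7.16 with medium. When log2 signals were averaged over every probe set of a gene, with no floor, 56 of the 59 genes were below 1, and Sox4, Fancl and Il16 were above 1. In these 3 the average takes in probe sets under the floor on both arrays, such as 17.2 with the supernatant and 3.17 with medium for Fancl, so no level can be read from it. For every gene the average holds the probe set that chose it, and for the 31 genes with 1 probe set it is that ratio alone. The count of 56 was thus largely fixed by the choice, and nothing is read from it.

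Restricted to other probe sets that were themselves at 150 or more with medium, 13 remained in 10 genes. Of these 12 were below 1 and 4 at or below 0.6, beside 1.85% at or below 0.6 of 5789 such probe sets over all bright genes. The 5789 were not matched to the 13 in signal either. Those 4 belonged to Iigp1, Tent5c, Cpeb2 and Ptger4, and the 1 above 1 to Rsrp1 (1.03). A probe set that the annotation gives to Tmem181a together with 2 of its pseudogenes was used for no gene and read 1206 with the supernatant and 1261 with medium, a ratio of 0.957, brighter and nearer to 1 than the probe set of Tmem181a alone.

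**Figure D5:**
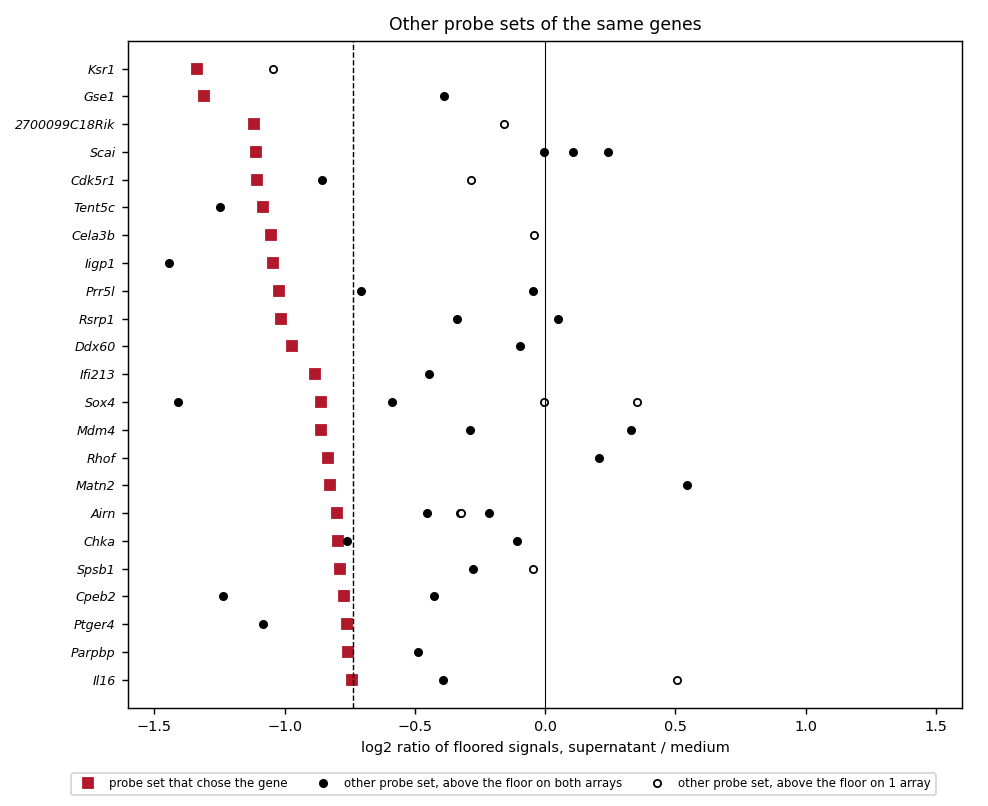
Log2 ratio of supernatant to medium signal, floored at 38.4, for the 23 genes with another probe set above the floor, on the probe set that chose the gene (red squares) and on the others (filled circles, above the floor on both arrays, open circles, on 1 array), with 0.6 dashed. Those of Ptger4, Tent5c, Iigp1 and Ksr1 are all left of the dashed line, while those of Matn2 and Rhof lie to the right of 0.

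For the 98 bright genes with a ratio at or above 1.67, the same symbols were left out. Of their 98 other probe sets above the floor, 45 (45.9%) also reached that ratio, beside 20.5% for the 59 genes. The sets are not alike. Ratios of bright genes ran up to 44.3, while the 59 genes were at most 2.52-fold lower. The upward genes were also above 150 on both arrays by the rule, whereas 36 of the 59 read under 150 with the supernatant. The difference in shares was not tested, and nothing is read from it.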

How the data were processed

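Values are MAS5 signals as deposited, a linear intensity for each probe set, with 1 array per condition, from an Affymetrix Mouse Genome array. The scaling target, the genome build and any filter are not given in the sources used here. The mean after trimming 2% at each end was 500.0 on both arrays, so 1 factor per array is likely. The array annotation gave 34958 of 45101 probe sets a single gene, and 932 with several genes were used for none. A gene was read by whichever of its probe sets was brightest on average. The floor of 38.4 was the 95th percentile, on the array where it was higher, over 80 olfactory and vomeronasal receptor probe sets, and it was applied only to other probe sets. Promoter windows came from RefSeq (GRCm38.p6). Genes were named by a rule that takes the lowest ratios, the brightest genes, those at the limits, those whose probe sets agree or disagree, and examples per functional group. The members and lists were chosen with earlier results of these data known, and functional groups, related genes, the platelet genes and the last 2 motifs after values were seen. No test was run. Alternatives were other scalings, dim-signal treatments, probe set choices and limits. Scripts used Python 3.11.15, numpy 2.4.6, pandas 2.3.3, statsmodels 0.14.6 and matplotlib 3.10.9, and were tested on simulated data. The simulation lowered no gene of the dimmest bin and had less noise than these data. It checks the code and not how the rule behaves for dim genes.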

Additional observations from a re-analysis of the deposited data

How the results depend on the processing

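No paired analysis was possible because there was a single array for either condition. The number of genes, 59, was most sensitive to its own limits. It was 22 at a ratio of 0.5, 220 at 0.7, 132 with a medium signal of 100 or more and 21 with 300 or more. It was 34 with the floor added as a pseudocount, and 134 with log2 signals averaged over every probe set of a gene, of which 36 were among the 59. With the supernatant signal also at 150 or more, an alternative chosen after seeing the data, it was 23. It was 52 after median-centring, 42 after quantile normalization, 44 with loess, 57 when probe sets whose names end in _s_at, _x_at or _a_at were dropped (49 shared) and 62 with the probe set brightest with medium (59 shared). Averaging over every probe set put Sox4 (1.37), Fancl (1.79) and Il16 (1.47) above 1, through probe sets that include some under the floor on both arrays. Under all 3 scalings 40 of the 59 met both limits, and the highest ratio of any of the 59 was 0.637. Ptger4 had 0.603 after median-centring, and 0.585 and 0.592 with quantile normalization and loess. The counts of other probe sets at or below 0.6 ranged from 6 to 8 over the alternatives and those below 1 from 21 to 31. Their median log2 ratio ranged from -0.39 to -0.26. As a stand-in for replicate spread, the SD of a log2 ratio between probe sets of a gene was 0.26 over 4902 genes, which covers no biological or array-to-array error.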
